A study of Mus musculus with 6 samples.

Results

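The genes described here are 34 immediate early and stimulus-response genes, picked by symbol from the 47561 gene rows counted in LT-HSCs (long-term hematopoietic stem cells) sorted from mouse bone marrow, which can renew every blood lineage for life. They are 8 AP-1 genes (Atf3 included), 3 EGR, 4 KLF, 2 NR4A, 4 DUSP, 3 ZFP36, 2 BTG, 3 IER and 2 small MAF genes, with Cd69, Gadd45b and Per1. RNA was sequenced from 3 libraries of Piezo1 knockout (KO) mice and 3 of control mice, which the labels call WT, and the comparison asks how transcripts differ when this mechanically opened calcium channel is missing. The groups come from the sample titles: in the genotype field, KO replicates 2 and 3 carry other Piezo numbers. Strain, age, sex, the deleted allele and any Cre driver are not given in the sources used here, and the labels do not say whether each library is a mouse of its own, so p-values rest on how far these libraries differ from each other, which may be technical.

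Libraries held 59435258 to 64653956 counts. Genes with any count numbered 18205, 18540 and 17695 in KO libraries, against 16264, 17994 and 16970 in control libraries, so control replicate 1 had the fewest. Piezo1 was at 4.28, 7.99 and 9.46 CPM (counts scaled to library size after TMM normalization) in the KO libraries, against 17, 7.02 and 24.3 CPM in the control libraries, so the library labelled control replicate 2 lay below KO replicates 2 and 3 (edgeR quasi-likelihood adjusted p = 0.508). Groups are therefore called what their labels say. Of 10 LT-HSC markers, Hlf, Mecom and Slamf1 were present in every library, at 28.1 CPM or more. Fgd5 and Hoxb5 were at most at 17.6 and 8.62 CPM. Ly6a and Procr were lower in KO and Kit higher, with values further on, so the markers did not all behave alike. KO replicate 3 and control replicate 3 stood apart in ways described further on, and values that turn on either are also given without it.

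Immediate early genes are switched on within minutes of a stimulus by transcription factors that the cell already holds, with no new protein needed. Growth factor signals reach them through the ERK kinase cascade, which phosphorylates ETS-family partners of SRF, and calcium signals reach them through CREB, which binds the cyclic AMP response element (CRE). Their products are largely transcription factors (FOS, JUN, EGR, KLF and NR4A proteins) and brakes on the same response: DUSP phosphatases switch MAP kinases off, and ZFP36 proteins bind AU-rich elements and speed the decay of short-lived mRNAs. In blood stem cells EGR1 is known for its role in quiescence and retention in the marrow, and the class as a whole is also known to respond to tissue dissociation and sorting.

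The promoters of Fos, Nr4a1, Zfp36 and Zfp36l1 are shown as examples. Each of these genes was highest in KO replicate 3, Zfp36l1 only narrowly (35.1 CPM, against 34.3 CPM in KO replicate 1). Among them, only Zfp36l1 had all KO values above all control values. Each sequence is the 250 bases upstream of the RefSeq start (GRCm38.p6), read 5′ to 3′ on the gene's strand. Capitals mark matches on either strand to CRE half-sites (TGACG), ETS sites (CCGGAA), AP-1 sites (TGANTCA), CArG boxes, which SRF binds, and TATA boxes (TATAAA). Fos lies on the plus strand at chr12:85473640-85473889, Nr4a1 on the plus strand at chr15:101266596-101266845, Zfp36 on the minus strand at chr7:28379229-28379478 and Zfp36l1 on the minus strand at chr12:80113014-80113263.
Fos: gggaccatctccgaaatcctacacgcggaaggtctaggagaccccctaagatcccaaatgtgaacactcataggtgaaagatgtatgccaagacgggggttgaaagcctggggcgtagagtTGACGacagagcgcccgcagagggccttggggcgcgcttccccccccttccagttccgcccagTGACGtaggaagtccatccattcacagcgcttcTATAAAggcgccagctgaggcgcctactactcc
Nr4a1: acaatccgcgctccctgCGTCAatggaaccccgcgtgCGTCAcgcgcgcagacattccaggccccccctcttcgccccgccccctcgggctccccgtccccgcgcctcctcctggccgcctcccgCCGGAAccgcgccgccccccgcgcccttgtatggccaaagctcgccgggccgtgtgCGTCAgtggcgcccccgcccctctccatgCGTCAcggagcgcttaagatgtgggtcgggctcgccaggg
Zfp36: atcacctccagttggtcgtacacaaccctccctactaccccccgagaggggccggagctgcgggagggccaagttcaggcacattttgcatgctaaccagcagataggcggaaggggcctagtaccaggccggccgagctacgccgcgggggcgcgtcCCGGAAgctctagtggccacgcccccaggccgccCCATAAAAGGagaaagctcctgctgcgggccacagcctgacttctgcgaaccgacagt
Zfp36l1: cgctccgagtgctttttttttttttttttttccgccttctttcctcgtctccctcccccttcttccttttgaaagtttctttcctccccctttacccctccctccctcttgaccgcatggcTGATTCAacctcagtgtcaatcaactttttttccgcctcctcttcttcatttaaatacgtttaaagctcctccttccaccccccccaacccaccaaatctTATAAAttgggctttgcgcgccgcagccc

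The Fos promoter held 2 CRE half-sites, the nearer one starting 66 bases before the start, and that of Nr4a1 held 4. Zfp36 had a CArG box 58 bases before the start with an ETS site at 92, and Zfp36l1 an AP-1 site at 129. RefSeq promoters were matched for 27 of the 34 genes, and Cd69, Egr1, Egr3, Fosl1, Ier2, Klf10 and Zfp36l2 had no entry. Of the 24 matched genes that were also tested for expression, 13 held a CRE half-site (54.2%), against 29.5% of all 11132 such genes in the table. The matched genes left out of this count, Atf3, Fosb and Klf4, each held one too. The full CRE, TGACGTCA, which contains the half-site, was in 3 of the 24 (Btg2, Dusp1 and Maff; 12.5%), against 2.77% of tested genes. CArG boxes were in 3 (Dusp5, Egr2 and Zfp36; 12.5%), against 1.53%, and ETS sites in 5 (20.8%), against 24.4%. TATA boxes were in 5 (20.8%), against 8.47%, and the AP-1 site in 1 (4.17%), against 5.52%. The EGR site GCGTGGGCG was in 1, Maff (4.17%), against 1.17%. These are matches of letters in a short window, and any further sites outside it were not searched.

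Most of the expressed genes of this class were higher in KO libraries, and 0 of them passed the threshold. Of the 34 genes, 29 passed the filter on low counts and were tested. Of these, 26 had a positive log2 fold change of KO over control (89.7%), against 52.2% of all 16022 tested genes, and the median log2 fold change was 1.0 against 0.03. Without KO replicate 3 there were 21 positive members (72.4%), with a median of 0.71. With edgeR's quasi-likelihood test, an adjusted p under 0.05 was reached by 0 of them in either direction and by 0% of all genes higher and 0% lower, the lowest adjusted p over all genes being 0.172; limma-voom also gave 0. At an unadjusted p under 0.05, 7 were higher (24.1%) and 0 lower, against 5.44% higher and 5.59% lower among all tested genes. The KO libraries all lay above the control libraries in 10 of the 29 (34.5%) and all below in 0, against 10.7% and 8.76% of all genes. DESeq2, which gave an adjusted p to 16 of the 29, put Egr1, Zfp36l2 and Cd69 past 0.05 as higher and 0 as lower, against 2.09% higher and 3.59% lower among the 9173 genes with an adjusted p. The filter bears on these counts: 6 tested genes (Klf2, Mafk, Per1, Nr4a1, Nr4a2 and Dusp5) had under 10 counts in at least 1 control library and none under 10 in KO. Egr2 was under 10 counts in KO only, and Fos in both groups. Of the 5 genes not tested, Fosb, Egr3 and Klf4 had most or all of their counts in KO libraries and Fosl1 in control.

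Egr1, the zinc finger transcription factor, had 53.6, 77.7 and 92.8 CPM in KO libraries, against 18.5, 19.9 and 23.7 CPM in control libraries. The 3 control values lay close together and the lowest KO value was above all of them. The log2 fold change was 1.85 (SE 0.26), with an unadjusted p = 0.000172 and an edgeR adjusted p = 0.255, the smallest p among the 29. With any 1 library left out it was between 1.65 and 2.02. The counts of Egr2 and Egr3 varied from library to library. Egr2, a relative with much the same DNA-binding domain, had 0.201, 9.73 and 0 CPM in KO libraries, against 4.18, 15.5 and 0.377 CPM in control libraries, so the groups overlapped almost fully (log2 fold change -1.01, SE 2.06). A count of 0 allows up to 0.0481 CPM in KO replicate 3. Egr3, not tested, had 0, 200 and 6 counts in KO libraries, against 0 counts in each control library.

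The AP-1 genes encode the FOS and JUN subunits that pair as dimers, and for Fos and Jun a single KO library stood far above the other 5. Fos had 3.59, 0 and 57.8 CPM in KO libraries, against 11.2, 1.03 and 0.108 CPM in control libraries. Replicate 3 of the KO group held most of its counts, while KO replicate 2 had 0, which allows up to 0.0498 CPM. Jun had 2.40, 0.498 and 20.6 CPM in KO libraries, against 4.56, 1.04 and 0.539 CPM in control libraries, again with KO replicate 3 alone above the rest. The log2 fold changes were 2.32 (SE 2.21) for Fos and 1.94 (SE 1.41) for Jun. Without KO replicate 3 both changed sign, to -1.23 and -0.52. Fosb, a close relative of Fos and under the filter, had 85, 0 and 1038 counts in KO libraries, against 0, 0 and 9 counts in control libraries.

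The JUN relatives Junb and Jund were steadier. Junb had 9.22, 15.6 and 13.1 CPM in KO libraries, against 8.98, 7.69 and 3.70 CPM in control libraries, with the groups separated by a narrow gap (log2 fold change 0.90, SE 0.48; unadjusted p = 0.104, edgeR). Jund, the JUN gene usually expressed without a stimulus, had 6.72, 5.07 and 22.2 CPM in KO libraries, against 1.83, 3.24 and 4.55 CPM in control libraries. All KO values lay above, KO replicate 3 by far. Its log2 fold change was 1.82 (SE 0.73; edgeR unadjusted p = 0.0405, adjusted p = 0.428), and 0.87 without KO replicate 3. Fosl2 went the other way, with 2.72, 6.11 and 3.38 CPM in KO libraries, against 2.84, 7.72 and 6.49 CPM in control libraries, and the groups overlapped. Fosl1 had 31 counts in control replicate 2 and 0 in the other libraries. Atf3, a stress-induced AP-1 partner, had 0 counts in all 6 libraries. In the GENCODE M21 annotation Jund, Junb and Fosl1 share exon bases with genes on the opposite strand (Gm11175 over 877 bases, Prdx2 over 173 and Ccdc85b over 1163). The strand of the counting is not stated in the labels, so the counts of Jund, Junb and Fosl1 are uncertain to that extent.

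**Figure D1:**
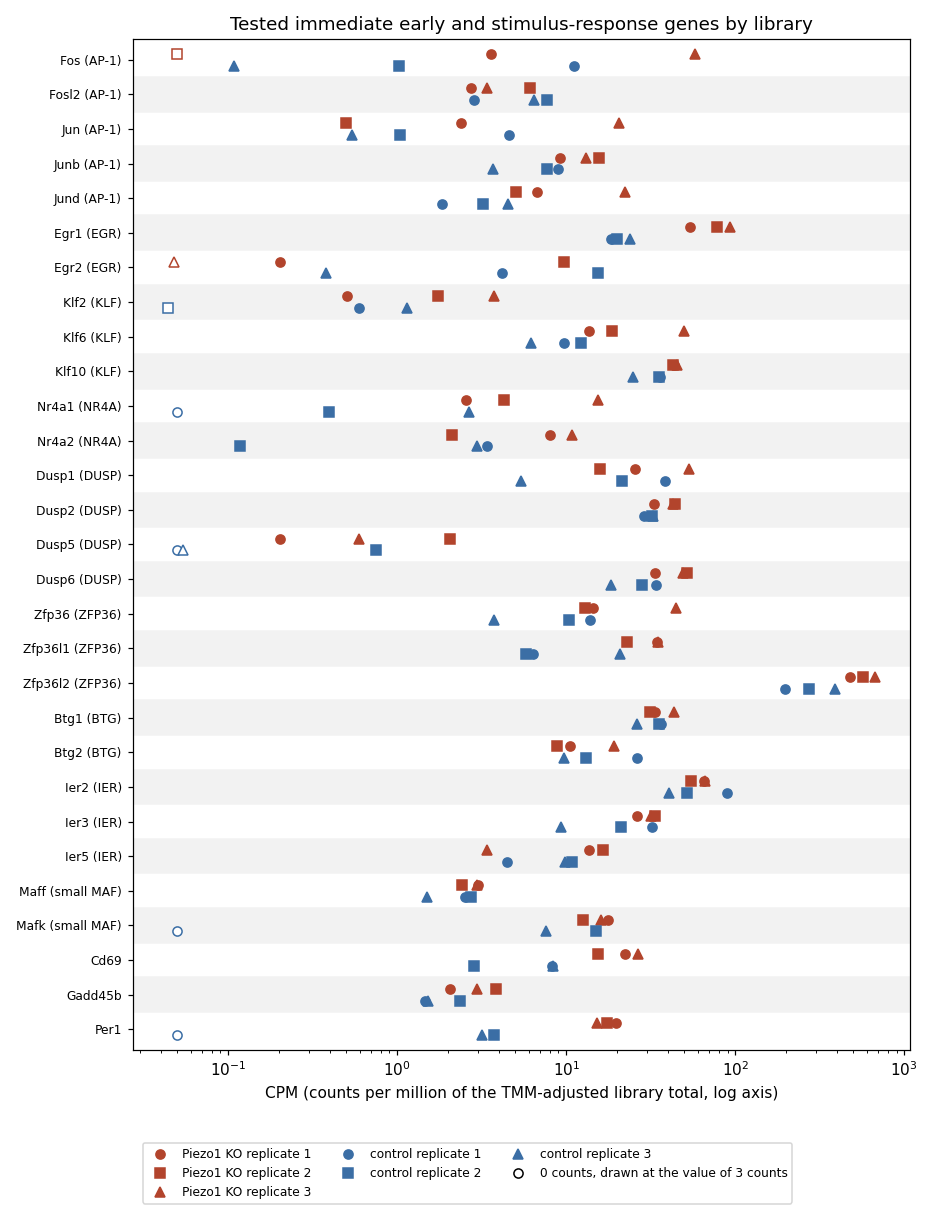
CPM on a log axis for the 29 tested genes in each of the 6 libraries, Piezo1 KO above control in each row, with the replicate shown by the marker and open markers for 0 counts drawn at the value of 3 counts. Egr1, Zfp36l2 and Cd69 have all KO points right of all control points, while for Fos and Jun the single KO replicate 3 point, at 57.8 and 20.6 CPM, lies far from the others.

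Among the Krüppel-like factors, Klf6, a broadly expressed and injury-responsive member, had 13.6, 18.6 and 49.8 CPM in KO libraries, against 9.64, 12.2 and 6.16 CPM in control libraries. All KO values were above, and KO replicate 3 exceeded the other KO libraries by far. The log2 fold change was 1.55 (SE 0.56; edgeR unadjusted p = 0.0263, adjusted p = 0.389), and 0.77 without KO replicate 3. Klf10, a TGF-beta-inducible repressor and the highest of the 4 per exon length (10.5 CPM per kb in KO, 7.69 CPM per kb in control), was even within KO, with 43.4, 42.8 and 45.5 CPM in KO libraries, against 36.0, 35.5 and 24.9 CPM in control libraries. The KO values lay just above the control values (log2 fold change 0.45, SE 0.23; edgeR unadjusted p = 0.0885, adjusted p = 0.527). Klf2, known as a flow- and quiescence-linked factor in endothelium and lymphocytes, had 0.503, 1.74 and 3.75 CPM in KO libraries, against 0.594, 0 and 1.15 CPM in control libraries. Klf4, under the filter, had 18, 0 and 124 counts in KO libraries, against 0 in each control library.

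The NR4A orphan nuclear receptors, whose activity is set by how much of them is made, averaged at most 2.12 CPM per kb in KO and 0.530 CPM per kb in control. Nr4a1 had 2.57, 4.27 and 15.5 CPM in KO libraries, against 0, 0.396 and 2.64 CPM in control libraries. KO replicate 1 lay just under control replicate 3, so the groups overlapped. Nr4a1 had a log2 fold change of 2.88 (SE 1.71; edgeR unadjusted p = 0.135, adjusted p = 0.598). It was 1.75 without KO replicate 3 and 5.21 without control replicate 3, where the unadjusted p was 0.0391. Nr4a2 had 8.02, 2.11 and 10.8 CPM in KO libraries, against 3.38, 0.117 and 2.95 CPM in control libraries, and here KO replicate 2 fell inside the control range. Its log2 fold change was 1.70 (SE 1.18), and 1.11 without control replicate 2.

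Of the dual-specificity phosphatases, Dusp6, the cytoplasmic phosphatase that acts on ERK and is itself induced by ERK signalling, had 33.6, 51.9 and 49.0 CPM in KO libraries, against 33.8, 27.9 and 18.4 CPM in control libraries. KO replicate 1 and control replicate 1 were nearly equal, and the other KO libraries lay above all control libraries. The log2 fold change was 0.75 (SE 0.31; edgeR unadjusted p = 0.0437, adjusted p = 0.440). Dusp2, a nuclear phosphatase of blood cells, had 33.0, 44.1 and 42.9 CPM in KO libraries, against 28.9, 32 and 32.5 CPM in control libraries. The groups were separated by under 1 CPM, with a log2 fold change of 0.36 (SE 0.22). Dusp1, the nuclear phosphatase of stress kinases, had 25.4, 15.9 and 53.5 CPM in KO libraries, against 38.2, 21.2 and 5.39 CPM in control libraries. The highest and the lowest value were both in replicates 3, and the log2 fold change of 0.55 (SE 0.72) became -0.088 without KO replicate 3. Dusp5, a nuclear ERK phosphatase, had 0.201, 2.04 and 0.593 CPM in KO libraries, against 0, 0.747 and 0 CPM in control libraries, where 0 allows up to 0.0539 CPM.

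The ZFP36 family, whose proteins bind AU-rich mRNAs through a pair of CCCH zinc fingers, held the highest level of the class per exon length. Zfp36l2, needed for blood stem cell maintenance in mice, had 477, 568 and 668 CPM in KO libraries, against 196, 273 and 387 CPM in control libraries. All KO values exceeded all control values, and the means, 571 ± 95.6 CPM in KO and 285 ± 96.3 CPM for control (SD, n = 3 each), stood further apart than either SD. The log2 fold change was 1.0 (SE 0.27; edgeR unadjusted p = 0.00714, adjusted p = 0.286). With 1 library left out it was between 0.79 and 1.29. Zfp36l1 had 34.3, 22.8 and 35.1 CPM in KO libraries, against 6.32, 5.76 and 20.9 CPM in control libraries. Control replicate 3 came near the lowest KO value, and without it the log2 fold change of 1.48 (SE 0.55; edgeR unadjusted p = 0.0304, adjusted p = 0.398) became 2.35. Zfp36 itself, also called tristetraprolin, had 14.5, 12.9 and 44.5 CPM in KO libraries, against 13.8, 10.4 and 3.72 CPM in control libraries. Outside KO replicate 3 the KO values lay inside the control range or just above it, with a log2 fold change of 1.36 (SE 0.66), and of 0.54 without that library. Exons of Zfp36l1 share 1672 bases with the opposite-strand Gm26669, so its counts are uncertain without strand. Shorter opposite-strand overlaps touch Jun (232 bases), Mafk (169), Zfp36 (125) and Zfp36l2 (105), and 547 bases of Dusp5.

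**Figure D2:**
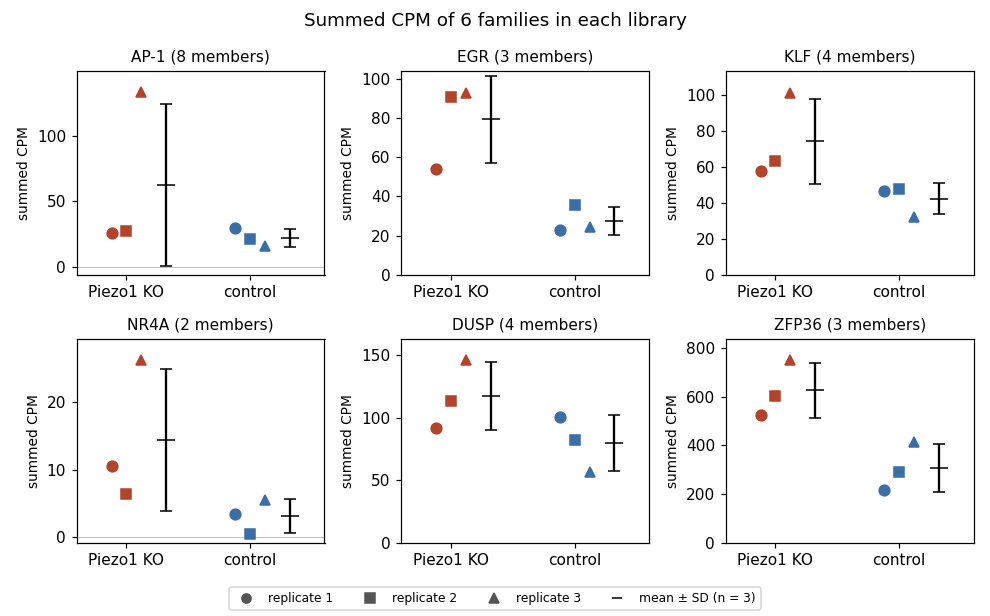
Summed CPM of the AP-1, EGR, KLF, NR4A, DUSP and ZFP36 genes in each library, Piezo1 KO left and control right, with the mean ± SD (n = 3) beside the points. The EGR, KLF, NR4A and ZFP36 sums do not overlap between the groups, while the AP-1 sum of 134 CPM in KO replicate 3 stands above 26.1 and 27.3 CPM in the other KO libraries.

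Set side by side, the families differed in how their sums were spread. The EGR sum, mostly Egr1, was 79.2 ± 22 CPM in the KO libraries, against 27.4 ± 6.94 CPM in the control libraries (SD, n = 3 each, as for the next sums). The ZFP36 sum, mostly Zfp36l2, was 626 ± 113 CPM over KO libraries, against 305 ± 99.0 CPM over control libraries. The KLF sum was 74.0 ± 23.6 CPM over KO libraries, against 42.1 ± 8.58 CPM over control libraries, and the NR4A sum 14.4 ± 10.5 CPM over KO libraries, against 3.16 ± 2.55 CPM over control libraries. In these 4 families the lowest KO sum lay above the highest control sum, by as little as 6.38 against 5.59 CPM for NR4A. Neither Nr4a1 nor Nr4a2 separated the groups alone. Among all tested genes taken singly, 10.7% had all KO libraries above all control libraries. Without KO replicate 3 the mean NR4A sum was 8.48 CPM in KO and the mean AP-1 sum 26.7 CPM. The AP-1 sum, 62.4 ± 61.8 CPM in KO against 22 ± 6.97 CPM in control, and the DUSP sum, 117 ± 27.0 CPM in KO against 79.7 ± 22.4 CPM in control, overlapped. The median log2 fold change was highest for the 2 NR4A genes, at 2.29. It was 1.82 for the 5 tested AP-1 genes, 1.55 for the 3 KLF genes, 1.36 for the 3 ZFP36 genes and 0.65 for the 4 DUSP genes. Without KO replicate 3 these medians were 1.48 for NR4A, -0.37 for AP-1, 0.77 for KLF, 0.86 for ZFP36 and 0.48 for DUSP. NR4A thus stayed highest, while the AP-1 median changed sign and the order of the other families turned on that library. The tested EGR genes, Egr1 and Egr2, had opposite signs, and no test of a difference between families was made.

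Cd69, a surface lectin and early activation marker of lymphocytes, had 22.4, 15.5 and 26.4 CPM in KO libraries, against 8.19, 2.84 and 8.32 CPM in control libraries. The groups were well apart, with a log2 fold change of 1.73 (SE 0.50; edgeR unadjusted p = 0.0103, adjusted p = 0.314). Per1, a clock gene that CREB can also induce, had 19.8, 17.3 and 15.1 CPM in KO libraries, against 0, 3.75 and 3.16 CPM in control libraries. The KO values were even and well above the control values. Its log2 fold change of 2.92 (SE 1.40; edgeR unadjusted p = 0.0748, adjusted p = 0.504) has a wide error, and control replicate 1 held 0 counts, which allows up to 0.0495 CPM. Without control replicate 1 it was 2.33, with an unadjusted p = 0.00101 and an edgeR adjusted p = 0.520.

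The remaining genes overlapped between the groups. Ier2, a nuclear immediate early protein gene and next to Zfp36l2 the highest per exon length at 40.7 CPM per kb in KO and 39.7 CPM per kb in control, had 65.1, 54.7 and 66.2 CPM in KO libraries, against 89.0, 51.8 and 40.7 CPM in control libraries. Ier3, an apoptosis regulator gene, had 26.2, 33.6 and 31.8 CPM in KO libraries, against 32.4, 21.2 and 9.33 CPM in control libraries. Ier5 had 13.6, 16.4 and 3.42 CPM in KO libraries, against 4.49, 10.8 and 9.81 CPM in control libraries. The log2 fold changes of these 3 IER genes lay between 0.036 and 0.54. None of the 3 separated the groups, and for Ier2 and Ier3 the spread was wider in control.

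The antiproliferative genes Btg1 and Btg2 overlapped as well. Btg1 had 33.5, 31.2 and 43.3 CPM in KO libraries, against 36.3, 35.6 and 26.3 CPM in control libraries (log2 fold change 0.14, SE 0.25). Btg2, a p53 target, had 10.5, 8.80 and 19.2 CPM in KO libraries, against 26.1, 13.0 and 9.65 CPM in control libraries (-0.34, SE 0.50). Both sit within the spread between libraries. Mafk, a small MAF partner of NRF2 and BACH factors, had 17.6, 12.5 and 16 CPM in KO libraries, against 0, 14.9 and 7.58 CPM in control libraries, so the library labelled control replicate 2 lay inside the KO range. Maff, another small MAF gene, had 3.02, 2.42 and 2.97 CPM in KO libraries, against 2.53, 2.73 and 1.49 CPM in control libraries, and Maff and Gadd45b both overlapped. Gadd45b, a stress sensor gene, had 2.05, 3.84 and 2.95 CPM in KO libraries, against 1.45, 2.36 and 1.53 CPM in control libraries.

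**Figure D3:**
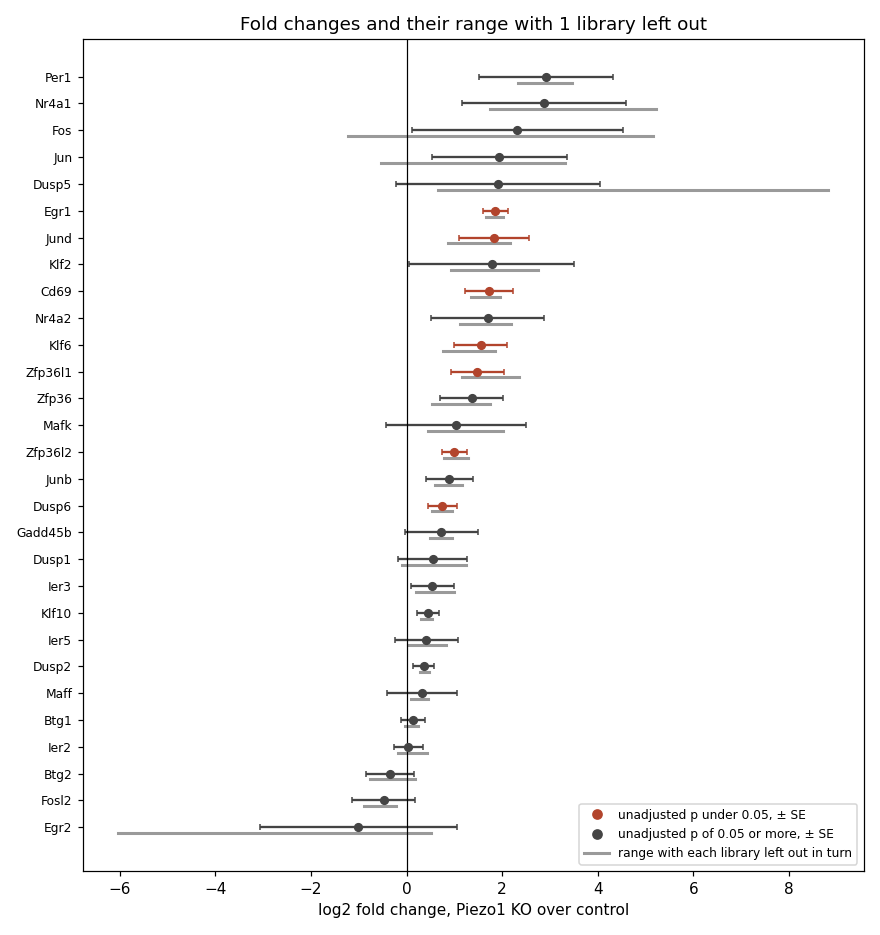
log2 fold change of Piezo1 KO over control with its SE for the 29 tested genes, red where the unadjusted p was under 0.05, with a grey bar for the range when each library was left out in turn. Egr1 keeps between 1.65 and 2.02, while the bars of Fos, Jun, Dusp1, Btg1, Btg2, Ier2 and Egr2 cross 0.

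Per exon length, the levels in KO were led by Zfp36l2 at 162 CPM per kb, then Ier2 (40.7), Ier3 (27.0), Dusp2 (19.98) and Egr1 (16.7 CPM per kb). In control the order was Zfp36l2 at 80.8 CPM per kb, then Ier2 (39.7), Ier3 (18.5), Dusp2 (15.5) and Dusp6 (8.53), with Egr1 at 4.62 CPM per kb. Evenness within a group differed between genes. Over the 3 KO libraries the highest value of Klf10 was 1.06 times the lowest and that of Ier2 1.21 times. Over the 3 control libraries it was 1.13 times for Dusp2 and 1.29 times for Egr1. In contrast the highest Jun value was 41.4 times the lowest in KO, and that of Fos 104 times in control. Genes with a 0 in a group have no such ratio. These were Fos and Egr2 in KO, and Klf2, Mafk, Nr4a1, Per1 and Dusp5 in control. The median SD of log2 CPM over the 29 genes was 0.45 in KO and 0.77 in control, against 0.39 and 0.54 over all tested genes.

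One KO library weighed most on this class. KO replicate 3 had the highest CPM of the 6 libraries in 15 of the 29 tested genes (51.7%), against 19.8% of all tested genes. These 15 were Fos, Jun, Jund, Egr1, Klf2, Klf6, Klf10, Nr4a1, Nr4a2, Dusp1, Zfp36, Zfp36l1, Zfp36l2, Btg1 and Cd69. Control replicate 3 was the lowest in 10 of the 29 (34.5%) and the highest in 0, against 16% and 18.3% of all genes, and control replicate 1 the lowest in 9, against 26.4%. Control replicate 1 had 0 counts for 4 tested genes (Dusp5, Mafk, Nr4a1 and Per1), where each other library had 0 counts for at most 1. Without control replicate 1 their log2 fold changes were 1.33 for Dusp5, 0.45 for Mafk, 2.29 for Nr4a1 and 2.33 for Per1. Without KO replicate 3, 3 genes were higher at an unadjusted p under 0.05 (Egr1, Zfp36l2 and Cd69) in place of 7. The other 4 each lost it without other libraries too: Jund without control replicate 1 or 2, Klf6 without control replicate 1 or 3, Dusp6 without KO replicate 2 or control replicate 2 or 3, and Zfp36l1 without KO replicate 1 or control replicate 1 or 2. Without both KO replicate 3 and control replicate 3 there were 4, the same 3 with Zfp36l1. Granulocyte markers summed to 120, 605 and 1176 CPM in KO libraries, against 177, 225 and 12401 CPM in control libraries, so control replicate 3 also held most of these. Of 10 tested granulocyte markers 1 was lower and 0 higher at an unadjusted p under 0.05, and their part in its low values was not tested.

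**Figure D4:**
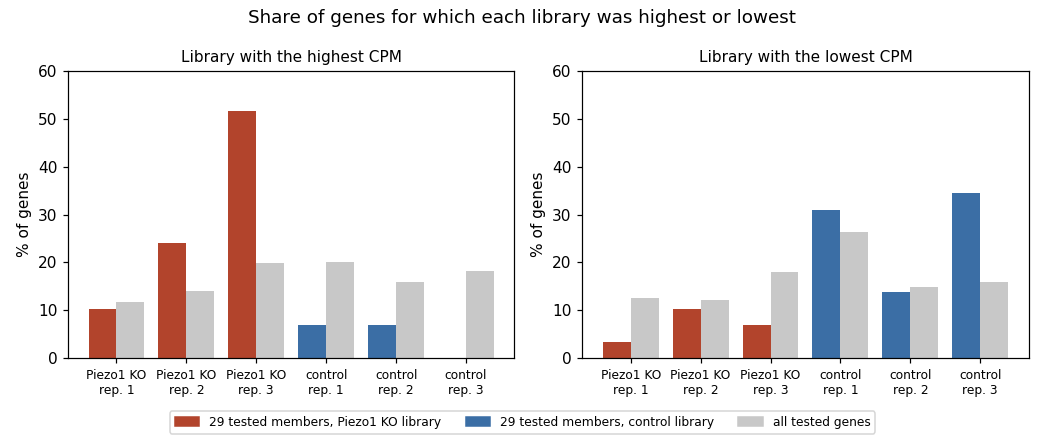
Percentage of genes for which each library had the highest (left) or the lowest (right) CPM, with coloured bars for the 29 tested genes and grey bars for all 16022 tested genes. KO replicate 3 was highest in 51.7% of the 29 genes against 19.8% of all genes, and control replicate 3 was highest in 0.

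Upstream of these genes, the ERK cascade list had an unadjusted p under 0.05 for 3 higher genes and 1 lower gene of 20 tested, with a median log2 fold change of 0.45. Over all tested genes, as a background for this and the next lists, 5.44% were higher and 5.59% lower, and the median was 0.03. The adaptor gene Grb2 had 73.4, 68.5 and 100.2 CPM in KO libraries, against 20.5, 35.2 and 49.7 CPM in control libraries. Spry2, a feedback inhibitor that ERK signalling induces, had 16.2, 17 and 12.4 CPM in KO libraries, against 7.38, 7.91 and 3.90 CPM in control libraries. For Grb2 and Spry2 all KO values lay above all control values. The kinase gene Araf was the lower one, at 43.0 ± 11.4 CPM over KO libraries, against 75.7 ± 27.2 CPM over control libraries (SD, n = 3 each). The edgeR adjusted p-values were 0.311 for Grb2, 0.373 for Spry2 and 0.448 for Araf.

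The next list held SRF, CREB and their cofactors, and also the EGR corepressor genes Nab1 and Nab2. Of its 16 genes, 2 were higher at that threshold and 0 lower, with a median of 0.50. Nab2, a corepressor of EGR proteins and known EGR1 target, had 5.92, 8.30 and 6.73 CPM in KO libraries, against 2.096, 2.15 and 1.76 CPM in control libraries, with a log2 fold change of 1.80 (SE 0.57; edgeR adjusted p = 0.346). Its KO values were all above, as for Egr1. Crtc2, a CREB coactivator that calcineurin can release to the nucleus, averaged 18.8 ± 1.42 CPM over KO libraries, against 10.01 ± 1.44 CPM over control libraries (SD, n = 3 each; edgeR adjusted p = 0.375). The related corepressor gene Nab1 and the acetyltransferase gene Crebbp showed smaller differences, with log2 fold changes of 0.83 for Nab1 and 0.48 for Crebbp (SE 0.41 and 0.27; edgeR unadjusted p-values 0.0789 and 0.109).

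Relatives of the same families that are not among the 34 gave 3 higher and 0 lower of 21 tested, with a median of 0.23. Gadd45g, a stress sensor gene like Gadd45b, averaged 15.2 ± 2.29 CPM over KO libraries, against 5.36 ± 1.75 CPM over control libraries (SD, n = 3 each, as for the next genes). Klf9, a glucocorticoid-inducible factor, averaged 49.5 ± 4.76 CPM over KO libraries, against 27.3 ± 10.7 CPM over control libraries, and the repressor gene Klf11 13.3 ± 3.81 CPM, against 6.26 ± 1.70 CPM. The erythroid factor Klf1 had a log2 fold change of -0.67 (SE 0.29). Other stimulus-induced genes gave 1 higher and 2 lower of 25 tested, with a median of 0.46, counts near the share over all genes. The signalling regulator Rgs1 averaged 92.4 ± 14.7 CPM over KO libraries, against 63.4 ± 10.9 CPM over control libraries. The lower ones were the kinase gene Pim1, at 26.7 ± 5.75 CPM over KO libraries, against 48.6 ± 14.6 CPM over control libraries, and the interferon-induced Irf1, at 42.6 ± 10.3 CPM over KO libraries, against 76.3 ± 29.7 CPM over control libraries. Myc, induced by many mitogens, averaged 216 ± 17.4 CPM over KO libraries, against 291 ± 61.2 CPM over control libraries, and the groups overlapped.

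Heat shock genes, which cell handling can also induce, were mostly lower in KO. A positive log2 fold change was found for 1 of 11 tested, 4 were lower and 0 higher at an unadjusted p under 0.05, and the median was -0.39. The abundant Hsp90aa1, Hsp90ab1 and Hspe1 hardly differed, with log2 fold changes of 0.028, -0.0089 and -0.023. The constitutive chaperone Hspa8 had 1554, 1328 and 1428 CPM in KO libraries, against 4065, 2920 and 2404 CPM in control libraries. Its co-chaperones Dnaja1 and Dnajb1 averaged 223 ± 14.3 and 70.8 ± 5.29 CPM over KO libraries, against 418 ± 43.2 and 111 ± 12.3 CPM over control libraries (SD, n = 3 each), and the endoplasmic reticulum chaperone Hspa5 231 ± 17.7 CPM, against 396 ± 95.3 CPM. In all 4 the KO libraries lay below the control libraries, with edgeR adjusted p-values of 0.255 to 0.284. Over the whole list, 5 of the 11 lay all below and 0 all above, against 8.76% and 10.7% of all tested genes. The inducible Hspa1a and Hspa1b did not exceed 0.0733 CPM in any library, but they are near-identical copies, and it is not known whether reads matching both were counted, so their level is uncertain. Hspb1, a small heat shock protein gene under the filter, had 1.76, 1.86 and 0 CPM in KO libraries, against 0 CPM in each control library. The labels give no times or temperatures of the sort, and the part of handling in these values was not tested.

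Marker genes of some other blood cells also differed in level between the groups, while the monocyte and B cell sums overlapped. The 9 erythroid markers, led by the globins, summed to 24767, 9321 and 7203 CPM in KO libraries, against 474, 1407 and 4102 CPM in control libraries. The 10 megakaryocyte and platelet markers summed to 1911, 2832 and 2480 CPM in KO libraries, against 1283, 1152 and 985 CPM in control libraries. Of these, 6 of 9 tested (and 4 of 9 erythroid markers) were higher at an unadjusted p under 0.05, against 5.44% of all tested genes. The lowest edgeR adjusted p in both lists was 0.255. Monocyte, macrophage and dendritic markers summed to 295 to 523 CPM in KO libraries, against 453 to 1416 CPM in control libraries, most of it Lyz2. B cell markers summed to 33.7 to 38.1 CPM in KO libraries, against 31.1 to 89.1 CPM in control libraries, and T and NK markers to 246 to 263 CPM, against 129 to 209 CPM, nearly all of it Nkg7. Of the CD3 genes, Cd3d had 8.11 CPM and Cd3g 4.50 CPM in KO replicate 2 and at most 0.593 CPM elsewhere, while Cd3e did not exceed 0.116 CPM. Stroma and endothelium markers summed to 5.27 to 15.1 CPM in KO libraries, against 0.693 to 4.46 CPM in control libraries. Of the 10 LT-HSC markers, Kit was higher, while Ly6a and Procr were lower, all at an unadjusted p under 0.05 (edgeR adjusted p-values 0.297 to 0.398). Ly6a had 89.2, 206 and 72.8 CPM in KO libraries, against 324, 373 and 284 CPM in control libraries. For Procr the values were 9.68, 26.7 and 4.99 CPM in KO and 67.1, 56.5 and 22.6 CPM in control, which overlapped. Kit had 323, 293 and 344 CPM in KO libraries, against 106, 223 and 226 CPM in control libraries. The part of these cells in the immediate early values was not tested, and in bulk RNA more cells of a type and more RNA per cell cannot be told apart.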

How the data were processed

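The authors deposited whole-number counts per gene, not normalized, for each of the 6 libraries, made with TRIZOL extraction and a TruSeq RNA kit per the labels' protocols. Per the submitters' processing notes, HISAT2 2.1, the mm10 build and featureCounts 1.6.4 were used, beside bcl2fastq 2.19, DESeq2 2.11.40.6 and cutadapt 1.16.5, without settings; strand and the handling of reads with several matches are not given in the sources used here. Members and gene lists were chosen with earlier results of these data known. Genes were kept by filterByExpr, scaled by TMM and tested across all genes with edgeR 4.0.16 (quasi-likelihood F test, R 4.3.3, Benjamini-Hochberg over 16022 genes). The SE was the log2 fold change divided by the square root of F. Log2 CPM used a prior count of 2. In each library a 0 allows up to 3 counts, which covers counting error only. No 2 libraries agreed within sampling noise (chi-square per gene at least 128). Lengths are unions of GENCODE M21 exons. The code was tested on simulated counts. DESeq2 1.42.0, limma 3.58.1 (voom), other filters and size factors, a replicate block and leaving out libraries were alternatives. Values per library were to be given for each tested gene, with statistics for those at an unadjusted p under 0.05 and the most abundant of each family, and up to 4 genes per list; Piezo1 was the label check. Nab1, Crebbp, Klf1 and Myc complete lists under this rule. Statistics of further members, and of the heat shock genes Hsp90aa1, Hsp90ab1 and Hspe1, were added after their values were seen. For 1 gene of the lists that this rule would name, values are not reported here.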

Additional observations from a re-analysis of the deposited data

How the results depend on the processing

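Over all genes, 0 were higher and 0 lower at an adjusted p under 0.05 with edgeR, and DESeq2 gave 192 and 329, of which 3 higher were members. Size factors of DESeq2, no filter, limma-voom and the replicate block kept both counts at 0; a filter of 5 CPM in 3 libraries gave 1 lower gene, and so did leaving out KO replicate 3 and control replicate 3 together, a choice made after seeing the data. With 1 library left out the counts ranged from 0 to 1 higher (1 without control replicate 1) and stayed at 0 lower. Those at an unadjusted p under 0.05 ranged from 562 (without KO replicate 3) to 1339 higher (without control replicate 3) and from 573 (without control replicate 1) to 1299 lower, against 871 and 896.

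The 7 members higher at an unadjusted p under 0.05 became 3 to 8 with 1 library left out and 4 without both replicates 3, and members lower 0 to 1 (Egr2, without KO replicate 2). Egr1, Zfp36l2 and Cd69 were among them in all 13 alternatives, with edgeR, limma and DESeq2 adjusted p-values of 1.29e-06 to 0.618, 0.00521 to 0.683 and 0.0374 to 0.716. Of 29 members, 22 had the same sign in every alternative that gave a value. With 1 library left out the log2 fold changes ranged from -1.23 to 5.15 for Fos, -0.52 to 3.30 for Jun, -0.088 to 1.24 for Dusp1, -0.032 to 0.23 for Btg1, -0.18 to 0.42 for Ier2, -0.77 to 0.18 for Btg2 and -6.03 to 0.51 for Egr2. Without both replicates 3 they were -1.76 for Fos, -0.95 for Jun, -0.52 for Dusp1, -0.15 for Btg1 and -0.23 for Ier2. The cause was not tested.

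With the replicate number as a block, 5 members were higher at an unadjusted p under 0.05, of which 4 were among the 7, and Fos was at -1.08. Same-numbered libraries deviated together only weakly (r = 0.038, 0.016 and 0.033 over 16022 genes), so the numbers were not taken as pairs, although each library correlated best with its own number. At these depths a count of 0 limits a gene to under 0.0539 CPM per library.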
